A study of Drosophila melanogaster with 6 samples.

Results

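Pickpocket (ppk) genes encode the degenerin/epithelial sodium channel (DEG/ENaC) family of the fruit fly, whose subunits assemble into sodium-permeable channels of the cell membrane. Probe sets were taken as members when the platform annotation gave them exactly 1 gene symbol that was ppk, alone or followed by a number, or rpk (ripped pocket). This rule, which uses no measured value, gave 32 of 18769 probe sets, for 28 of the 11982 genes with a probe set of 1 symbol. Of these genes, 24 had 1 probe set and 4 (ppk8, ppk9, ppk15 and ppk18) had 2. The family symbols ppk11 and ppk13 of the gene table had no such probe set and were not analysed here.

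The study measured head RNA of male Drosophila melanogaster on 1-colour Affymetrix arrays. Single-housed males lived 1 per vial for 6 days after eclosion, and group-housed males lived 10 per vial for the same time. Each group had 3 arrays, each of 20 pooled heads, which the series text calls biological replicates. The series contrasts single-housed males, described as more aggressive, with less aggressive group-housed males. The labels name neither a strain nor any treatment other than housing.

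Insect pickpocket channels work at the surface of sensory and other cells. Some are known as taste channels: ppk23, ppk25 and ppk29 act in gustatory neurons, best known from the legs, that detect contact pheromones of the cuticle and shape male courtship, and ppk28 acts in neurons that taste water. Others detect harsh touch: ppk and ppk26 serve nociceptive neurons with branched dendrites in the larval body wall. A further set, including ppk7, ppk10, ppk12, ppk14 and ppk19, is known from the airway epithelium of the trachea. In whole heads, few cells with much RNA and many cells with little RNA cannot be told apart.

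The arrays carried the markers of head tissue, and all differences are single-housed minus group-housed. The glial markers repo and alrm averaged 8.95 and 9.96 on the normalized scale, log2(intensity + 16). The photoreceptor channel trp, the only 1 of 4 photoreceptor markers with a probe set, averaged 11.67. Means of the 6 probe sets of the neuronal markers elav, nSyb and brp ran from 4.67 to 9.65. Correlations between arrays across probe sets ran from 0.977 to 0.989. The summed deposited intensity of 4 gut protease probe sets ran from 716 to 2470 on single-housed arrays and from 28.1 to 776 on group-housed arrays. That of 3 fat body probe sets (fit, Lsp2 and apolpp) ran from 16700 to 18500 on single-housed arrays and from 8540 to 13100 on group-housed arrays. In the limma fit the fat body genes fit, Lsp2 and apolpp were at 1.39, 1.63 and 0.06 (adjusted p 0.338, 0.594 and 0.821). The tracheal genes serp, btl and verm were at 0.34, 0.20 and -0.26 (limma adjusted p 0.499, 0.796 and 0.797). The part of these tissues in the values below was not tested.

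Most of the family was not above background in male heads. The table has no detection calls, so a background level was set from 18 genes of the female egg shell and the larval salivary glue, tissues that an adult male head does not have. The 95th percentile of their mean levels was 5.02, equal to an intensity of 16.4 after normalization, and their means ran from 4.15 to 5.09. Of the 32 pickpocket probe sets, 7 had a mean over the 6 arrays above this level (21.9%), whereas 57.7% of all 18769 probe sets did. All 32 lay below the median of all probe sets, 5.46. The family's deposited intensities ran from 0.539 to 30.6, and the means of its probe sets from 4.10 to 5.33. Probes differ in how strongly they bind, so these levels give no order of abundance between genes. Markers of testis and male accessory gland, tissues that a head also lacks, had 1 of 5 and 1 of 3 probe sets above the background level. Their highest means were 5.18 and 5.28, so a mean just above the level does not establish expression in the head. Of the 6 neuronal marker probe sets, 4 were above the level, and the lowest, 1 of brp, averaged 4.67. A mean under the level therefore does not establish absence.

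**Figure D1:**
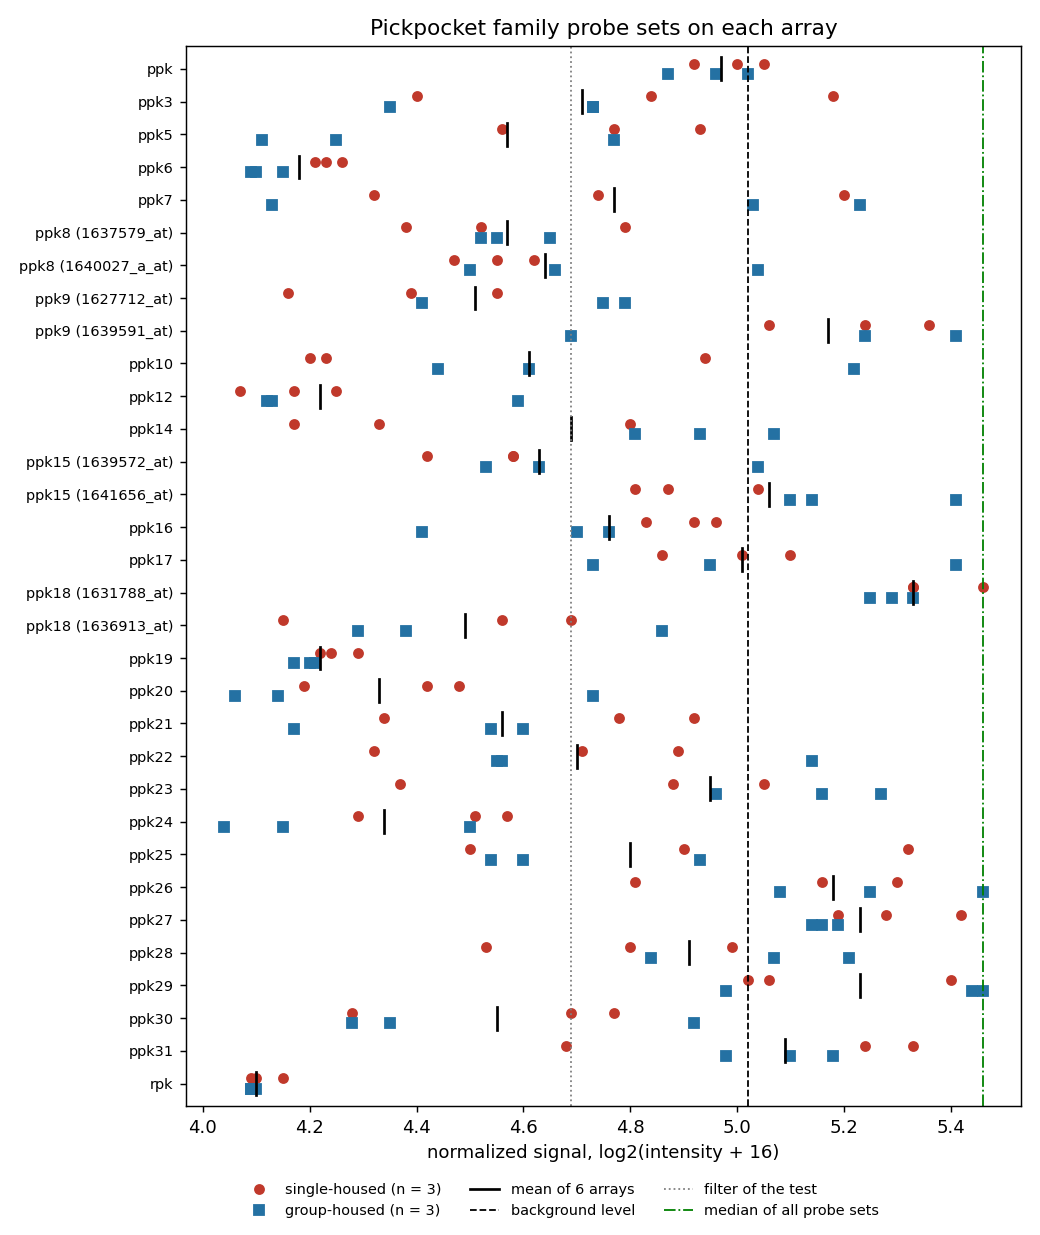
Normalized signal, log2(intensity + 16), of each of the 32 pickpocket probe sets on the 3 single-housed arrays (circles) and the 3 group-housed arrays (squares), with the mean of the 6 arrays as a black tick. The dashed line is the background level of 5.02, the dotted line the filter of the housing test at 4.69, and the dash-dotted line the median of all probe sets at 5.46. Every mean lies left of the last line, 7 lie right of the dashed line, and the points of both housing groups mostly mix.

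The contact pheromone channels lay around the background level. The probe set of ppk29 was above it on average. Its values were 5.06, 5.40 and 5.02 on the single-housed arrays and 5.44, 4.98 and 5.46 on the group-housed arrays. The single-housed values fell inside the group-housed range, and 5 of 6 arrays exceeded the background. The mean of ppk23 was 4.95, which is 0.07 below the background level. It stood at 4.88, 5.05 and 4.37 on the single-housed arrays and at 5.27, 4.96 and 5.16 on the group-housed arrays. Single-housed replicate 3 was the lowest of the 6 and group-housed replicate 1 the highest, and the groups overlapped. As deposited, its intensities were 13.6, 16.8 and 6.40 for the single-housed arrays and 21.2, 12.1 and 22.3 for the group-housed ones. The mean of ppk25 was 4.80, also under the background level. Its values were 4.90, 5.32 and 4.50 on the single-housed arrays and 4.54, 4.60 and 4.93 on the group-housed arrays. On this normalized scale only single-housed replicate 2 exceeded the background level of 5.02.

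None of the 3 pheromone channels passed the housing test (limma, Benjamini-Hochberg adjustment over 13138 probe sets). For ppk23 the mean was 4.77 ± 0.355 over the single-housed arrays and 5.13 ± 0.157 over the group-housed arrays (SD, n = 3 each), a log2 difference of -0.36 (SE 0.211, 95% interval -0.84 to 0.12, limma adjusted p 0.693). Dropping single arrays moved it between -0.50 (without single-housed replicate 2) and -0.17 (without single-housed replicate 3). For ppk25 it was 0.22 (SE 0.239, interval -0.33 to 0.76, limma adjusted p 0.846), with 0.01 without single-housed replicate 2 and 0.42 without single-housed replicate 3. For ppk29 it was -0.13 (SE 0.187, interval -0.56 to 0.29, limma adjusted p 0.887), and it was -0.29 when group-housed replicate 2 was dropped and -0.05 when group-housed replicate 3 was. The exact two-sided permutation test gave p = 0.2 for ppk23, 0.7 for ppk25 and 0.6 for ppk29, where 0.1 is the smallest that 3 arrays against 3 allow.

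The water channel gene ppk28 had a mean of 4.91, which is 0.11 below the background level. It stood at 4.99, 4.53 and 4.80 on the single-housed arrays and at 5.21, 5.07 and 4.84 on the group-housed arrays. No single-housed array and 2 of the 3 group-housed arrays exceeded the background, and the groups overlapped. The difference of -0.27 (SE 0.189, interval -0.70 to 0.16) had a limma adjusted p of 0.740, and it ran from -0.38 without group-housed replicate 3 to -0.15 without single-housed replicate 2. The salt taste gene ppk19, known for that role in larvae, lay far under the background on every array, between 4.17 and 4.29.

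Of the channel genes known from larval nociceptors, ppk26 was above background and ppk was not. The values of ppk26 were 4.81, 5.16 and 5.30 on the single-housed arrays and 5.25, 5.46 and 5.08 on the group-housed arrays, and 5 of 6 exceeded the background. The difference was -0.17 (SE 0.182, interval -0.58 to 0.24, limma adjusted p 0.838), with -0.28 without single-housed replicate 3 and -0.03 without single-housed replicate 1. The gene ppk varied little, at 4.92, 5.05 and 5.00 on the single-housed arrays and 4.87, 4.96 and 5.02 on the group-housed arrays. Its mean of 4.97 was 0.05 below the background level, and its difference was 0.04 (SE 0.150, interval -0.30 to 0.38, limma adjusted p 0.971), or 0.00 to 0.07 with 1 array left out.

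**Figure D2:**
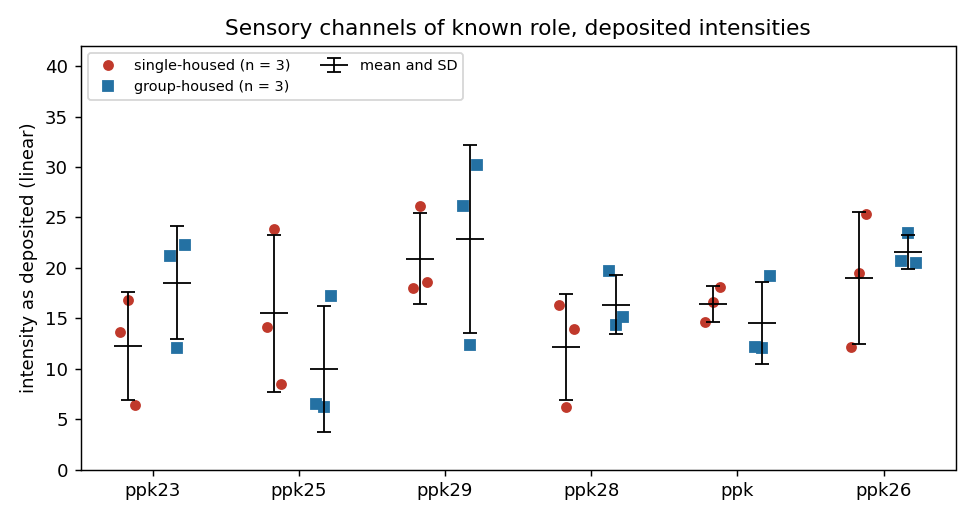
Intensities as deposited, on a linear scale, for the contact pheromone channels ppk23, ppk25 and ppk29, the water channel ppk28 and the nociceptor channels ppk and ppk26, with single-housed arrays left (circles) and group-housed arrays right (squares) for each gene, and the mean and SD of 3 arrays. For all 6 genes the groups overlap. The background level is not drawn, since it was set on normalized values.

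Of the genes known from trachea, ppk7, ppk10, ppk12, ppk14 and ppk19 all had means under the background level. Means of 3 of 3 tracheal marker genes with a probe set (btl, serp and verm) were above it. The mean of btl was below 5.28, the highest mean of the male accessory gland markers. On group-housed replicate 2 btl stood at 4.83, under the background level. Whether the signal of these 3 markers came from trachea was not tested. Arrays of ppk7 differed widely, from 4.13 to 5.23, with the lowest value on group-housed replicate 2 and the highest on group-housed replicate 3. Its within-group SD of 0.517 was the largest of the family. Values of ppk10 spread from 4.20 to 5.22. The gene ppk14 stood at 4.33, 4.80 and 4.17 on the single-housed arrays and 4.81, 5.07 and 4.93 on the group-housed arrays. Its groups did not overlap, by a margin of 0.0045, and only group-housed replicate 2 exceeded the background.

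The other 5 probe sets above background belonged to ppk9, ppk15, ppk18, ppk27 and ppk31. The probe set 1631788_at of ppk18 exceeded the background on all 6 arrays, at 5.46, 5.33 and 5.33 on the single-housed ones and 5.33, 5.25 and 5.29 on the group-housed ones. The probe set of ppk27 did so too, at 5.28, 5.19 and 5.42 for single housing and 5.16, 5.19 and 5.14 for group housing. These were the 2 members above background throughout, and 13 of the 32 were below it on all 6 arrays. The probe set 1639591_at of ppk9 exceeded it on 5 of 6 arrays, with 4.69 on group-housed replicate 2. The values of ppk31 were 4.68, 5.24 and 5.33 on single-housed and 5.18, 5.10 and 4.98 on group-housed arrays, with 4 of 6 above the level. The probe set 1641656_at of ppk15 had 1 single-housed and 3 group-housed arrays above it.

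Second probe sets did not repeat the calls. For ppk9, ppk15 and ppk18, the other probe set of each gene had means of 4.51, 4.63 and 4.49, under the background level. Both probe sets of ppk8 were under it, at 4.57 and 4.64. The probe set of ppk17 came closest from below, at 5.01. At the other end, rpk, known from the gonads and the early embryo, had values between 4.09 and 4.15, and ppk6 between 4.09 and 4.26. The other members under the background, ppk3, ppk5, ppk12, ppk16, ppk20, ppk21, ppk22, ppk24 and ppk30, had means from 4.22 to 4.76.

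The set above background depended on where the level was put. With the highest mean of the egg shell and glue genes, 5.09, as the level, 5 probe sets stayed above it: those of ppk9, ppk18, ppk26, ppk27 and ppk29. These 5 were above background in 11 of 11 settings of scaling, pseudocount and left-out array. With the array's own synthetic tag controls as the level (17 probe sets, 4.78), 12 were above it, including ppk, ppk17, ppk23, ppk25 and ppk28. The tag control level and the left-out arrays were settings chosen after seeing the data. The calls of ppk15 and ppk31 were lost when single arrays were left out, ppk15 without group-housed replicate 1 or 3 and ppk31 without single-housed replicate 2 or 3 or group-housed replicate 1. The gene ppk23 exceeded the level without single-housed replicate 3.

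No pickpocket probe set differed with housing in the test over all probe sets. The test left out the 30% of probe sets with the lowest means, at or under 4.69, and 16 of the 32 members passed this filter. Of these 16, 0 reached adjusted p 0.05 (limma, adjusted p 0.668 to 0.999), and 0 reached unadjusted p 0.05. Over all 13138 probe sets, 0.0152% passed the adjusted threshold and 8.24% the unadjusted one. The 16 differences ran from -0.36 to 0.28, with 7 above 0 and 9 below, and their median was -0.02, against -0.017 for all probe sets tested. Their standard errors were 0.130 to 0.327 on the log2 scale. All 16 of the 95% intervals lay within 1 log2 unit of 0, and the narrowest and widest reached 0.30 and 0.74 to each side of the estimate. The added intensity of 16 shrinks differences of dim probe sets, so these intervals describe the log2(intensity + 16) scale only. With an added intensity of 1, the difference of ppk23 was -0.81 and that of ppk16 was 0.67.

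**Figure D3:**
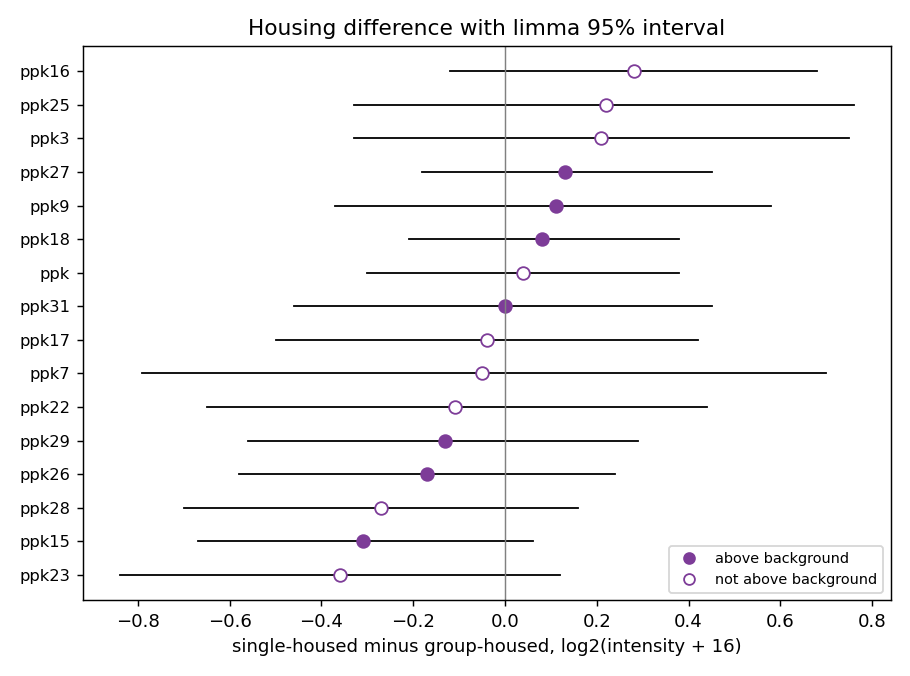
Difference between single-housed and group-housed heads on the log2(intensity + 16) scale for the 16 pickpocket probe sets that passed the filter, with the 95% interval of limma. Filled points are above background, open points are not, and all 16 intervals include 0.

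Groups did not overlap for 3 of the 16 tested probe sets, which is 18.8%, where 14.2% of all tested probe sets had groups that did not overlap. Of these 3, 2 were higher in single-housed heads (6.23% of all tested) and 1 was lower (7.95% of all tested). The probe set 1641656_at of ppk15 had the smallest p of the tested members. It stood at 4.87, 4.81 and 5.04 on the single-housed arrays and at 5.14, 5.10 and 5.41 on the group-housed arrays, so that every single-housed array was lower. Its difference was -0.31 (SE 0.161, interval -0.67 to 0.06, limma adjusted p 0.668), and leaving out single arrays moved it between -0.38 and -0.21. The second probe set of ppk15, with overlapping groups, was at -0.21. The exact permutation p of the first was 0.1. The gene ppk16, known with ppk11 for homeostatic adjustment of transmitter release at the neuromuscular junction, had the highest positive difference of the 16 tested members. Its values were 4.83, 4.92 and 4.96 for single housing and 4.76, 4.70 and 4.41 for group housing, all under the background level, with a difference of 0.28 (SE 0.176, interval -0.12 to 0.68, limma adjusted p 0.711). Leaving out single arrays gave 0.17 (without group-housed replicate 3) up to 0.35 (without group-housed replicate 1). For ppk27, whose values are given above, the gap between the groups was 0.0023 and the difference 0.13 (limma adjusted p 0.835), or 0.07 without single-housed replicate 3.

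Members under the filter had no test in that fit. In a fit without a filter, 1 of the 32 members reached unadjusted p 0.05 (7.45% of all 18769 probe sets did) and 0 reached the adjusted threshold in limma (0.00533% of all did). The member was ppk14, at a mean of 4.44 ± 0.330 over the single-housed arrays and 4.94 ± 0.128 over the group-housed arrays (SD, n = 3 each), a difference of -0.50 with an unadjusted p of 0.0300 and a limma adjusted p of 0.632. The highest difference of the 32 members was that of ppk5, 0.38 (limma unadjusted p 0.0962), with overlapping groups. Groups did not overlap for 6 of the 32 members (18.8%), 4 higher and 2 lower in single-housed heads, where 12.8% of all probe sets without a filter had such groups. Besides ppk14, ppk15, ppk16 and ppk27 these were ppk6 and ppk19. Their values lay between 4.09 and 4.29, and their differences were 0.12 and 0.06.

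By gene order in the table of assembly Release 6 plus ISO1 MT, 8 of the 28 genes had another family gene within 5 genes. The group of ppk19, ppk20, ppk21 and ppk30 was under background for all 4 genes, as was the pair ppk7 and ppk14. In the third cluster, ppk16 was under it while ppk18 had 1 of its 2 probe sets above it on all 6 arrays. The gene ppk16 overlaps ppk11, which had no probe set of its own here. In all, 11 of the 28 genes overlap another annotated gene, among them ppk25 with mim and CheB42c. Of the genes with a probe set above background, ppk29 overlaps sei and CG13563, and ppk18 overlaps CG4017 and CG17633. Likewise, ppk27 overlaps CG32264 and ppk31 overlaps CG34293, while ppk9, ppk15 and ppk26 overlap no other annotated gene. Which of the overlapping transcripts a probe set reads was not tested.

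Related sensory genes gave no call either. Over 4 lists of contact pheromone, taste, mechanosensory and peripheral neuron genes, 36 probe sets were tested, 0 passed the adjusted threshold in limma, and 3 reached unadjusted p 0.05 (8.33%, with 8.24% over all probe sets). The median difference was -0.06. Contact pheromone and taste genes had 2 of 14 probe sets at unadjusted p 0.05, both higher: a probe set of the sex determination gene dsx at 0.39 (limma adjusted p 0.441) and 1 of the male courtship gene fru at 0.36 (adjusted p 0.602). Other probe sets went the other way, at -0.11 for dsx and -0.21 for the fru probe set next by p. Sweet, salt and other taste genes had 0 of 8 at unadjusted p 0.05 in limma, and those with the smallest p, the sugar receptor gene Gr5a and the co-receptor gene Ir76b, were at 0.38 (adjusted p 0.718) and -0.19 (adjusted p 0.796). Mechanosensory and thermosensory channels had 1 of 6. This was nan, a channel subunit of hearing neurons, at 4.72, 4.97 and 4.60 on the single-housed arrays and 5.15, 5.31 and 5.52 on the group-housed arrays. These groups did not overlap, and the difference was -0.56 (SE 0.174, limma adjusted p 0.499). Peripheral neuron transcription factors had 0 of 8 at unadjusted p 0.05 in limma. The member of that list with the smallest p, a probe set of ct, was at -0.22 (adjusted p 0.667).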

How the data were processed

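The authors deposited 1 intensity per probe set and array on a linear scale. Standard Affymetrix labelling was used per the labels' protocols, while the sources used here do not give the probe summary, background correction or scaling. No count lies behind an intensity, so the number of arrays (3 per group) limits precision. The 183 control probe sets were left out. Values were taken as log2(intensity + 16). Array medians on that scale differed by 0.24, above a limit of 0.2, and quantile normalization was applied. A filter on the mean over 6 arrays took out the lowest 30% of probe sets. The housing groups were tested in R 4.3.3 by limma 3.58.1 (lmFit, eBayes with an intensity trend), two-sided, with Benjamini-Hochberg adjustment over all probe sets tested and a threshold of 0.05. The procedure was tested on simulated data.

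Genes were named from the platform annotation, and 28 of 28 gene IDs matched the RefSeq genes of Release 6 plus ISO1 MT with the same symbol. No sequences or coordinates are given, since no genome was used here. Every family member may be named, and of each related list up to 3 genes by smallest p. The members and lists were chosen with earlier results of these data known. Of the 22 egg shell and glue symbols, 18 had a probe set. Alternatives were other scalings, pseudocounts of 1 and 64, no filter or 50%, eBayes without trend or robust (statmod), array weights, a replicate block, and each array left out. No 2 arrays held identical values.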

Additional observations from a re-analysis of the deposited data

How the results depend on the processing

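No pickpocket probe set passed the adjusted threshold under any alternative that tested the family (lowest limma adjusted p 0.533). With the filter at 50% no family member was left to test. In limma, the family's count at unadjusted p 0.05 was 1 of 17 tested with a pseudocount of 64 (ppk14). It was 1 of 32 without a filter (ppk14) and 2 of 16 without the intensity trend (ppk15 and ppk16). Over all probe sets tested, the counts in these 3 settings were 1079 of 13138, 1399 of 18769 and 985 of 13138. The family's median difference ran from -0.07 to 0.08 with 1 array left out, the last without group-housed replicate 3. With the deposited scaling the median of all tested probe sets was 0.099 and that of the family 0.042. Of 235 values of single members under the alternatives, 225 kept their direction and 10 turned it. Those that turned were ppk17, at 0.04 with the deposited scaling, 0.03 with array weights, and -0.19 to 0.15 with 1 array left out, ppk7, at 0.10 with a pseudocount of 1 and -0.38 to 0.17 with 1 array left out, ppk22, at -0.21 to 0.05, and ppk9, at -0.10 to 0.26, both with 1 array left out. The difference of ppk31, 0.00, ran from -0.13 to 0.20 and was counted as kept. The cause was not tested. The number of members above background was 16 with the filter cutoff as the level, 0 with the median of all probe sets, 12 with the synthetic tag controls, and 5 to 9 with 1 array left out (the tag controls and left-out arrays were chosen after seeing the data). Non-overlapping groups numbered 3 with the deposited scaling, 3 with median centring and 7 to 12 with 1 array left out (12 without single-housed replicate 2), where fewer arrays make gaps easier. These settings of that count were chosen after seeing the data. The matching shares of all probe sets are not given, so these counts are not read as a result about the family. Calls over all probe sets were 78 with the deposited scaling, 11 with median centring, 1 with the filter at 50%, 1 with no filter, 1 with 64 added to the intensity, 0 when eBayes used no trend (limma, 985 at unadjusted p 0.05), 5 with array weights and 0 to 47 with 1 array left out (0 in limma without single-housed replicate 3, with 1045 at unadjusted p 0.05, and 47 without group-housed replicate 2). For the related sensory lists 1 probe set reached unadjusted p 0.05 with the filter at 50%, where 13 were tested. Same-numbered arrays correlated at 0.03, 0.11 and 0.33 in their deviations from the group means, and arrays of unlike number at -0.25 to 0.16. With 3 arrays per group, these values cannot decide whether the numbers pair the samples. The replicate block gave 32 calls over all probe sets and 0 in the family.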
